A study of Mus musculus with 4 samples.

Results

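The genes described here are 10 effectors of the antiviral program that interferons switch on: Ifit1, Ifit2, Ifit3, Isg15, Rsad2, Oasl2, Oas1a, Usp18, Mx1 and Epsti1. They were chosen by name, all 10 have a row in the tables, and they are 10 of 15690 genes with a row. Transcripts were counted in single myeloid cells sorted from the brains of mice with lung cancer brain metastasis, 1 cell to a well. All mice were of the athymic nude strain CAnN.Cg-Foxn1nu/Crl on the Balb/C background, which lacks a thymus and most T cells. The 4 groups are 1 plate each: BMDM (bone marrow-derived macrophages) with whole brain radiation therapy (WBRT), BMDM without it, microglia with WBRT, and microglia without it. Irradiated mice received 5 doses of 2 Gy each by their label, which adds the unexplained code d3. The plates with WBRT carry the tumor stage label not stratified and those without it the label small, so treatment cannot be told apart from stage or plate. The labels name no animals, ages or sorting markers. Each group is thus 1 sample, differences below are differences between plates, and none was tested.

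A well was kept when it held at least 1000 counts outside spike-in (ERCC) and mitochondrial rows and an ERCC share under 50%. This left 262 wells of BMDM with WBRT, 234 of BMDM without WBRT, 151 of microglia with WBRT and 157 of microglia without WBRT, of 384 wells each. They held 2513025, 1265842, 649107 and 874710 transcripts in that order, and the median well had 8894, 4388, 2546 and 4789. Microglia with WBRT stood apart: the median ERCC share was 30.6% there and 6.92% to 7.86% in the other plates, and 70.2% of its wells had under 1000 CPM of the nuclear RNA Malat1, against 8.12% to 44.6% in the other plates. Its 6 astrocyte markers summed to 910 CPM, all of them detected, against 30.02 to 100.6 CPM in the other plates. The sort labels were reflected in marker levels. The 10 microglia markers summed to 2883 and 3467 CPM in the BMDM plates with and without WBRT, and to 10500 and 9604 CPM in the microglia plates with and without WBRT. The 7 detected monocyte markers summed to 2246 and 1843 CPM in BMDM with and without WBRT, against 343 and 128 CPM in microglia with and without WBRT. The 9 markers of conventional dendritic cells (404 against 1521 CPM) and the 6 of mature dendritic cells (196 against 2196 CPM, with Il4i1 at 0 with WBRT) were lower in BMDM with WBRT than in BMDM without WBRT. Well names run over the same 384 plate positions in all 4 tables and identify no shared cells.

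Cells that sense foreign or misplaced nucleic acid release type I interferon, which acts through the receptor IFNAR, the kinases JAK1 and TYK2 and transcription factors such as IRF9 on a DNA element in the promoters of many genes. The IFIT proteins bind viral RNA that lacks the host's cap marks. OAS enzymes sense double-stranded RNA and make a nucleotide messenger, whereas OASL2 is a relative that also carries ubiquitin-like domains. ISG15 is a ubiquitin-like protein that is attached to other proteins, and USP18 removes it and also holds back signalling at IFNAR. RSAD2 (viperin) makes a modified nucleotide that stops viral polymerases, and MX1 is a dynamin-like GTPase against influenza-like viruses. Epsti1 is an interferon-induced gene whose role is less well defined. In microglia and brain macrophages this program also marks interferon-responsive cell states in injury, ageing and tumors.

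The Ifit genes lie side by side on chromosome 19 (GRCm38.p6, RefSeq), with Ifit2 at chr19:34550550-34576534, Ifit3 at chr19:34583119-34588982 and Ifit1 at chr19:34640889-34650009. Oasl2 (chr5:114896926-114912245) and Oas1a (chr5:120896256-120907544) share chromosome 5. The other members lie apart, Isg15 at chr4:156199424-156200818, Rsad2 at chr12:26442743-26456452, Usp18 at chr6:121245906-121270917, Mx1 at chr16:97447035-97462906 and Epsti1 at chr14:77904239-78002656. RefSeq annotates Mx1 in this reference genome as a transcribed pseudogene. Counts of Ifit3 and Oas1a are uncertain where reads could fall on near-identical copies, since Ifit3b has no row and Oas1g is counted beside Oas1a.

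Promoter windows of 300 bases, 250 before to 50 after the start site, were read from RefSeq's table for GRCm38.p6, which matched 8 of the 10 members with 9 windows. Usp18 and Mx1 had no entry. The windows were searched for the interferon-stimulated response core GAAANNGAAA on either strand (TTTCNNTTTC), counting overlapping matches. It was found in 5 of 8 member genes, against 1079 of 27025 genes (3.99%) in the whole table. The windows of these 5 genes are shown because they hold every match found among the members, and capitals mark the matched bases, with overlapping matches run together.
Ifit1, chr19:34640639-34640938, plus strand: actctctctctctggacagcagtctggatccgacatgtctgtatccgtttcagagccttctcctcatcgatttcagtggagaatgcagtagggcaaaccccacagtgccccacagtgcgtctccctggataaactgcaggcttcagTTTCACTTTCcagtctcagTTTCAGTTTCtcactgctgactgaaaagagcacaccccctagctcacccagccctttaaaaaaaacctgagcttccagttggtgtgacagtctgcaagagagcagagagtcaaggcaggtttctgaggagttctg
Ifit3, chr19:34583279-34583578, plus strand: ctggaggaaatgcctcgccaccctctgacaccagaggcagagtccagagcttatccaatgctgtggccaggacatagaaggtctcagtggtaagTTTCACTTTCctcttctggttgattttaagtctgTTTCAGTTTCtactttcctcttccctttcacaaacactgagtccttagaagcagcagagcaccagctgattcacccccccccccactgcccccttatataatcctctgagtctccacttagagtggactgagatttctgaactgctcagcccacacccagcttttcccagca
Isg15, chr4:156200769-156201068, minus strand: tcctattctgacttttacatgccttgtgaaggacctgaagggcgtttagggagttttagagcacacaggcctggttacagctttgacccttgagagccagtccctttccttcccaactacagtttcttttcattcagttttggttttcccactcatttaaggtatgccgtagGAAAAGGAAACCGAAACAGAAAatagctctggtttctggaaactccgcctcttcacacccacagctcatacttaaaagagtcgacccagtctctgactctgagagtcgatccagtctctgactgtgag
Oas1a, chr5:120907476-120907775, minus strand: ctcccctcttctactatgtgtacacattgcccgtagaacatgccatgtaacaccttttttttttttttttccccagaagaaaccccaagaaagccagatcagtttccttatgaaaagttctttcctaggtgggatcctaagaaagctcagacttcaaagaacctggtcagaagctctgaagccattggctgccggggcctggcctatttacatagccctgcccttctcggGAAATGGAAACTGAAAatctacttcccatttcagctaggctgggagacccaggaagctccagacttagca
Rsad2, chr12:26456403-26456702, minus strand: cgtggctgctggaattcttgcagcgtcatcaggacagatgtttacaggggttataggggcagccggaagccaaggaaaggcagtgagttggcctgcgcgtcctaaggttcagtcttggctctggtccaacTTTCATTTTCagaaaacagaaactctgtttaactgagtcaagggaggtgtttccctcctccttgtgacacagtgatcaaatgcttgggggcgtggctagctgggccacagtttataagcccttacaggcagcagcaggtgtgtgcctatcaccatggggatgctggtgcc
The 3 matches of Isg15 overlap and span bases -78 to -57 from the start site, and the 2 of Oas1a overlap and span -20 to -5. Ifit1 and Ifit3 each hold the same pair, TTTCACTTTC and TTTCAGTTTC, at -104 and -85 in Ifit1 and at -156 and -122 in Ifit3. Rsad2 holds 1 match at -120, and the windows of Ifit2, Oasl2 and Epsti1 hold none of these letters. A match is a description of the letters, and no binding was measured.

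In kept wells the 10 members summed to 593 CPM in BMDM with WBRT (95% Poisson interval 563 to 624, 1490 counts), 1794 CPM in BMDM without WBRT (1721 to 1869, 2271 counts), 425 CPM in microglia with WBRT (377 to 478, 276 counts) and 1548 CPM in microglia without WBRT (1467 to 1633, 1354 counts). CPM are a gene's counts scaled to 1000000 non-ERCC counts of the plate, and 1 UMI stands for 1 transcript, so that levels need no correction for gene length. The intervals reflect counting error alone, as if transcripts of a well were independent. The highest member was Oasl2 in BMDM with WBRT (174 CPM), Epsti1 in BMDM without WBRT (354 CPM), Ifit2 in microglia with WBRT (89.5 CPM) and Ifit3 in microglia without WBRT (306 CPM). For 9 of the 10 members both plates without WBRT stood above both plates with WBRT, and Oas1a was the exception. Among these, intervals overlapped between BMDM without WBRT and microglia with WBRT for Ifit2. For Oasl2 they overlapped between BMDM without and with WBRT. The intervals of all neighbours in the order of plates were apart for Ifit3 and Epsti1, whereas for Ifit1, Isg15, Rsad2, Usp18 and Mx1 those of the plates with WBRT overlapped each other.

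**Figure D1:**
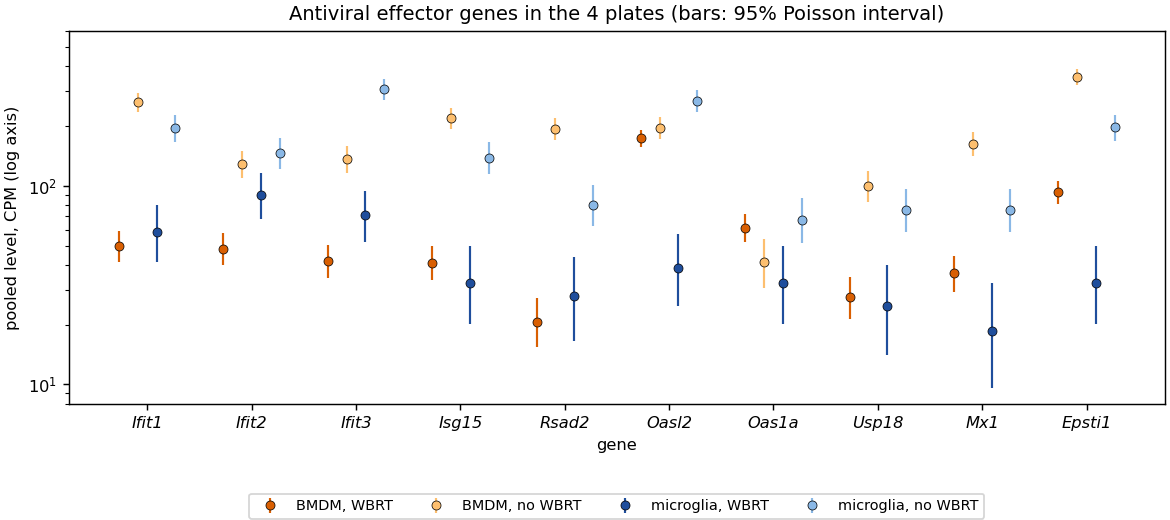
Pooled level of each member in CPM (log axis) in the 4 plates, with 95% Poisson intervals that cover counting error. Plates without WBRT (pale) lie above plates with WBRT (dark) for 9 of 10 members, and for Oas1a, at 61.3 and 41.1 CPM in BMDM with and without WBRT, the order differs.

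The first question was how the program differed in BMDM between brains with and without WBRT. The 10 members were together 3.03 times lower in BMDM with WBRT (2.83 to 3.23). Of them, 9 were lower and 1 was higher. Past a 2-fold difference in CPM + 5 were 8 members, all lower, and the background was 6.14% of 6551 genes past the same limit downward (5.16% upward). The median log2 ratio of the members was -1.78, against 0.08 over all genes tested. Rsad2 had 20.7 CPM in BMDM with WBRT and 194 CPM in BMDM without WBRT, 9.38 times lower (6.94 to 12.9). Isg15 had 41.0 CPM in BMDM with WBRT and 219 CPM without WBRT, 5.34 times lower (4.24 to 6.76), and its deconjugase gene Usp18 had 27.5 and 99.6 CPM, 3.63 times lower (2.68 to 4.94). Markers of other cells moved with this comparison. The 8 markers of macrophages at brain borders, all detected in both plates, summed to 1950 CPM in BMDM with WBRT and 423 CPM in BMDM without WBRT, and the dendritic cell markers went the other way, as given above. Without wells of the dendritic-cell-like clusters 8 and 10 described below, the ratio of the summed members was 0.353, against 0.330 over all wells. Cluster 7, which was also enriched for dendritic cell markers, was not left out. Within monocyte-like wells the ratio was 0.566.

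The 3 IFIT genes were all lower in BMDM with WBRT, by unequal amounts. Ifit1 had 49.8 CPM with WBRT and 264 CPM without WBRT (5.30 times lower, 4.31 to 6.57), Ifit2 had 48.2 and 129 CPM (2.67 times lower, 2.10 to 3.41) and Ifit3 had 41.8 and 136 CPM (3.25 times lower, 2.54 to 4.19). Mx1 had 36.2 CPM with WBRT and 162 CPM without WBRT (4.47 times lower, 3.48 to 5.79). Epsti1 had 92.7 CPM with WBRT and 354 CPM without WBRT (3.82 times lower, 3.25 to 4.49). Without the 3 wells of each plate richest in members, the ratio for Ifit2 became 0.249, against 0.374 with all wells, and the number of members past the limit was again 8. Ifit1 and Rsad2 moved the other way, nearer to 1. In BMDM without WBRT these wells held 74, 20 and 41 of the 334 counts of Ifit1 and 48, 52 and 13 of the 246 counts of Rsad2. With WBRT they held 4, 3 and 15 of 125 counts of Ifit1 and 2, 7 and 2 of 52 counts of Rsad2.

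The 2 members of the OAS family did not share this pattern in BMDM. Oasl2 had 174 CPM in BMDM with WBRT and 196 CPM in BMDM without WBRT, a ratio of 0.886 (0.756 to 1.04). Oas1a, a sensor of double-stranded RNA, had 61.3 CPM with WBRT and 41.1 CPM without WBRT, a ratio of 1.49 (1.08 to 2.08). Its share of wells was 35.1% with WBRT and 15.4% without WBRT at the depth of each plate. When each well was thinned to 1000 UMIs, the shares were 4.20% and 3.85% (11 and 9 wells) and the ratio of Oas1a was 0.893, so that its direction differed with the treatment of depth. Its near-identical relative Oas1g had 30.2 CPM with WBRT and 15.01 CPM without WBRT (ratio 2.02, 1.21 to 3.53).

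The second question was the same in microglia, where all 10 members were lower with WBRT, together 3.64 times (3.20 to 4.16). Again 8 members were past the 2-fold limit, where the background was 7.56% of 6723 genes downward (9.36% upward), and the median log2 ratio was -1.71, against 0.06 over all genes tested. Oasl2 had 38.5 CPM in microglia with WBRT and 268 CPM in microglia without WBRT, 6.95 times lower (4.59 to 10.95). Epsti1 had 32.4 CPM with WBRT and 197 CPM without WBRT, 6.08 times lower (3.85 to 10.1). Ifit3 had 70.9 CPM with WBRT and 306 CPM without WBRT, 4.31 times lower (3.14 to 6.03). These 3 were the members with the highest levels in microglia without WBRT.

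The other members were nearer to each other. Isg15 had 32.4 CPM in microglia with WBRT and 138 CPM in microglia without WBRT, Mx1 had 18.5 and 75.5 CPM, Usp18 had 24.7 and 75.5 CPM and Ifit1 had 58.6 and 195 CPM, between 3.06 and 4.27 times lower. Rsad2 had 27.8 CPM with WBRT and 80.1 CPM without WBRT, 2.89 times lower (1.70 to 5.15), on 18 and 70 counts. With wells thinned to 1000 UMIs the ratio of Rsad2 was 1.04, no longer lower and no longer among the members past the limit, which again numbered 8. Ifit2 and Oas1a were lower but not past the limit on the CPM + 5 scale, with 89.5 and 146 CPM for Ifit2 (1.64 times lower, 1.19 to 2.27) and 32.4 and 67.5 CPM for Oas1a (2.09 times lower, 1.25 to 3.61). Depth, ERCC share, the share of wells with low Malat1, astrocyte markers and markers of macrophages at brain borders (604 CPM with WBRT, 129 CPM without WBRT, where Lyve1 was at 0) moved with this comparison, and their part in it was not tested. Among wells with at least 1000 CPM of Malat1 the sums of the members were 531 CPM with WBRT and 1456 CPM without WBRT, a ratio of 0.365, and Ifit2 at a ratio of 0.958. Below that limit they were 318 and 1769 CPM.

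For some members the ratio by WBRT differed between the sorts by more than the intervals for counting error. The intervals of the ratio in BMDM and in microglia did not overlap for Rsad2 (0.107 in BMDM and 0.346 in microglia), Oasl2 (0.886 and 0.144) and Oas1a (1.49 and 0.480), and overlapped for the other 7. The share of all genes with intervals apart was not computed, so these members stand against no background. The intervals treat transcripts of a well as independent and are too narrow where few wells hold many counts. Rsad2 had 18 counts in microglia with WBRT, 44.5% of them in 1 well. In BMDM without WBRT 1 well held 21.3% of its 246 counts. A test of the differences between the sorts was not made, since each of the 4 groups is 1 plate.

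**Figure D2:**
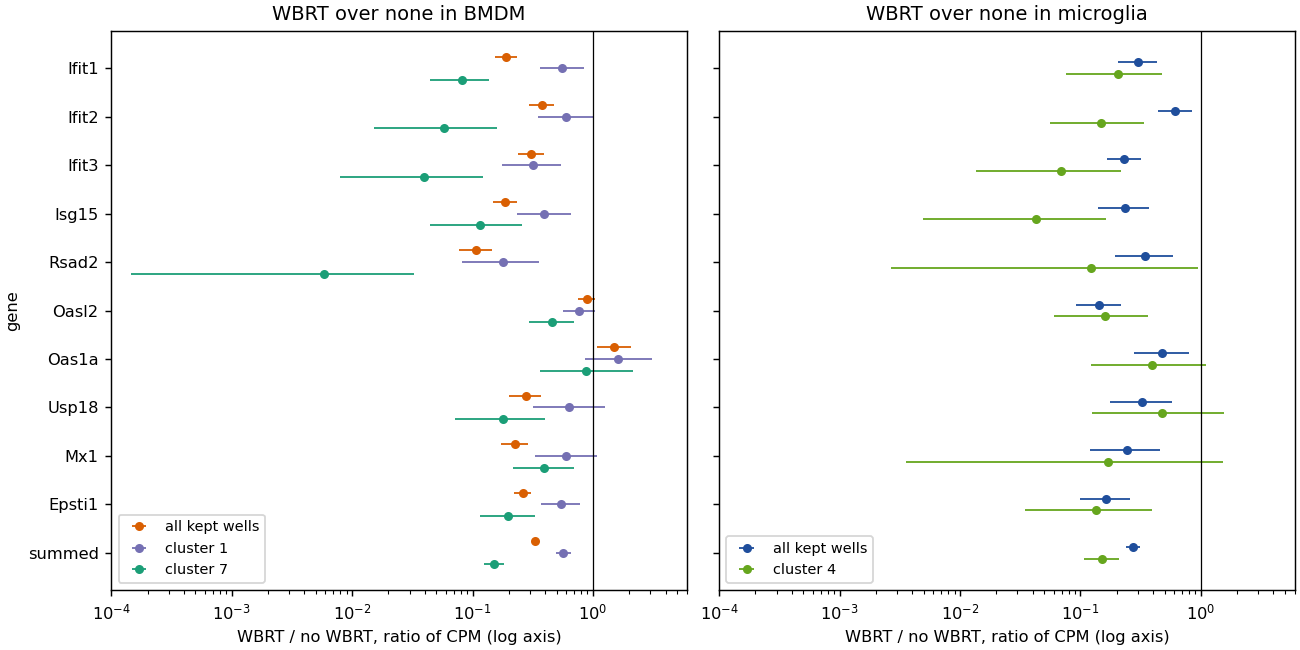
Ratio of CPM with WBRT over without WBRT for each member and their sum (log axis), with 95% intervals for counting error, over all kept wells and within clusters that held at least 20 wells of both plates. Points left of the line at 1 are lower with WBRT: 9 of 10 members in BMDM and 10 of 10 in microglia over all wells.

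Over all kept wells, the summed members differed less between the sorts than by WBRT. Single members did not all do so: Oasl2 (ratio of BMDM over microglia 4.51 with WBRT, 0.732 without WBRT) and Oas1a (1.89 and 0.609) differed more between the sorts than by WBRT in BMDM, and Ifit2 with WBRT (1.86 times lower in BMDM) more than by WBRT in microglia. These comparisons use the same 4 plates as the ones above and add no independent samples. Without WBRT the members summed to 1.16 times as much in BMDM as in microglia (1.08 to 1.24), with 6 members higher and 4 lower and a median log2 ratio of 0.40, against 0.02 over all genes. Past the limit upward were Rsad2 (194 CPM in BMDM, 80.1 CPM in microglia, ratio 2.42, 1.86 to 3.21) and Mx1 (162 and 75.5 CPM, ratio 2.15, 1.62 to 2.88), where the background was 10.3% of 6591 genes. Past it downward was Ifit3 (136 CPM in BMDM, 306 CPM in microglia, 2.25 times lower, 1.85 to 2.74), where the background was 6.81%. Over all kept wells the neighbours Ifit1 and Ifit3 thus stood in opposite order, with 264 CPM of Ifit1 in BMDM against 195 CPM in microglia. The Ifit1 side of this contrast depends on few wells. The 3 wells richest in members held 74, 20 and 41 of its 334 counts in BMDM, and 28, 4 and 11 of its 170 counts in microglia. Without wells of the dendritic-cell-like clusters 8 and 10 described below, the ratio for Mx1 was 1.40 and 1 member was past the limit.

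With WBRT the members summed to 1.39 times as much in BMDM as in microglia (1.23 to 1.59). Oasl2 (174 CPM in BMDM, 38.5 CPM in microglia, ratio 4.51, 3.01 to 7.04) and Epsti1 (92.7 and 32.4 CPM, ratio 2.87, 1.83 to 4.72) were past the limit upward, where the background was 7.91% of 6774 genes, and none was past it downward (7.45%). The median log2 ratio was 0.22, against 0.07 over all genes. This comparison depended on few wells. The 3 wells richest in members held 51.1% of the member counts in microglia with WBRT and 15.7% in BMDM with WBRT. Leaving them out thus raises the summed ratio by the choice of wells. Without the 3 richest wells of each plate the summed ratio was 2.32, 5 members were past the limit, and the ratios of Ifit1 (1.51, against 0.850 with all wells) and Rsad2 (1.46, against 0.746) turned to higher in BMDM.

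The members were unevenly spread over wells, as the plot of cumulative counts shows. The fewest wells that held 50% of the summed member counts were 30 of 262 in BMDM with WBRT, 28 of 234 in BMDM without WBRT, 3 of 151 in microglia with WBRT and 20 of 157 in microglia without WBRT. For all transcripts the same number was 78, 59, 31 and 39 wells. In microglia with WBRT the 3 richest wells held 51.1% of the member counts and 5.47% of all counts, whereas in the other plates 3 wells held 15.7% to 17.02% of the member counts. The richest well there had 82 of the 276 member counts, carried all 10 members and had 12320 transcripts, with 22 counts of Ifit2, 15 of Ifit3 and 11 of Ifit1. The highest wells of BMDM without WBRT had 161 and 124 member counts, of which 74 were Ifit1 and 48 Rsad2 in the first and 52 were Rsad2 in the second.

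In microglia the ratios by WBRT were smaller without these wells. Without the 3 richest wells of each plate the summed ratio of microglia with over without WBRT was 0.165, against 0.275 with all wells. These wells were chosen for their member counts and held 51.1% of them with WBRT and 16.4% without WBRT. A lower summed ratio thus follows from the choice of wells. All 10 members were then past the limit downward, and the share of all genes was not computed for this set of wells. The ratio of Ifit2 became 0.242 (0.611 with all wells), of Isg15 0.103 (0.234), of Mx1 0.138 (0.245), of Usp18 0.201 (0.327), of Ifit1 0.185 (0.301) and of Ifit3 0.146 (0.232). In BMDM the summed ratio changed little, at 0.338 without these wells and 0.330 with them.

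Single members differed in how concentrated they were. Rsad2 was among the most concentrated in the plates without WBRT, with 3 wells holding 50% of its counts both in BMDM without WBRT (of 57 wells with a UMI) and in microglia without WBRT (of 20 wells with a UMI). Oasl2 and Epsti1 were spread widest, with 50% of their counts in 31 and 28 wells of BMDM with WBRT, 26 and 29 wells of BMDM without WBRT, and 19 and 18 wells of microglia without WBRT. In BMDM with WBRT, 1 well held 33 of 121 counts of Ifit2 and 33 of 105 counts of Ifit3. In microglia with WBRT, every member had 50% of its counts in 2 to 5 wells.

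**Figure D3:**
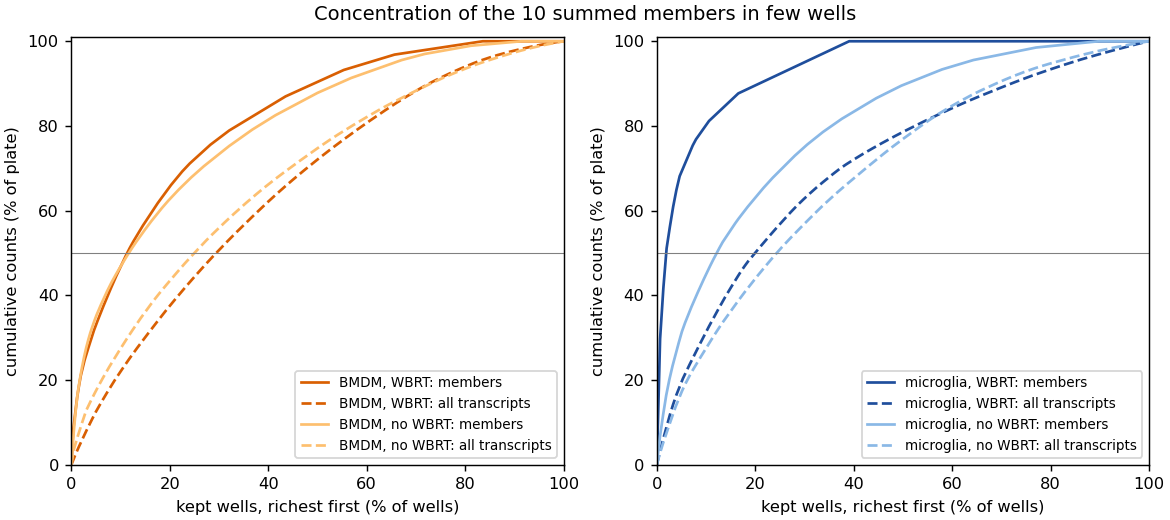
Cumulative share of counts over kept wells ordered from the richest, for the summed members (solid) and all transcripts (dashed), for BMDM (left) and microglia (right). The solid line of microglia with WBRT is the steepest: 3 wells hold 50% of its member counts.

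Wells with no member count at all made up 16.4% of BMDM with WBRT, 8.55% of BMDM without WBRT, 60.9% of microglia with WBRT and 10.2% of microglia without WBRT. The median well had a summed level of 321 CPM in BMDM with WBRT, 1208 CPM in BMDM without WBRT, 0 in microglia with WBRT and 1016 CPM in microglia without WBRT. These shares rise with depth, so each well was also thinned to 1000 UMIs, which left out no well. After thinning, at least 1 member was seen in 30.9% of wells of BMDM with WBRT (exact binomial interval 25.4% to 36.9%), 62.4% of BMDM without WBRT (55.9% to 68.6%), 13.9% of microglia with WBRT (8.82% to 20.5%) and 63.7% of microglia without WBRT (55.7% to 71.2%). The plates with WBRT thus had fewer wells with any member at equal depth.

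At least 3 members were seen after thinning in 3.82% of wells of BMDM with WBRT, 14.96% of BMDM without WBRT, 2.65% of microglia with WBRT and 10.8% of microglia without WBRT. Without thinning these shares were 42.4%, 60.7%, 5.96% and 58.0% in the same order. Among single members, Epsti1 was seen after thinning in 9.16% of wells of BMDM with WBRT and 28.2% of BMDM without WBRT, and Ifit3 in 2.65% of microglia with WBRT and 19.1% of microglia without WBRT. Rsad2 was seen in 3.31% of thinned wells of microglia with WBRT and 3.82% of microglia without WBRT, 5 and 6 wells, and its ratio of counts after thinning was 1.04.

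**Figure D4:**
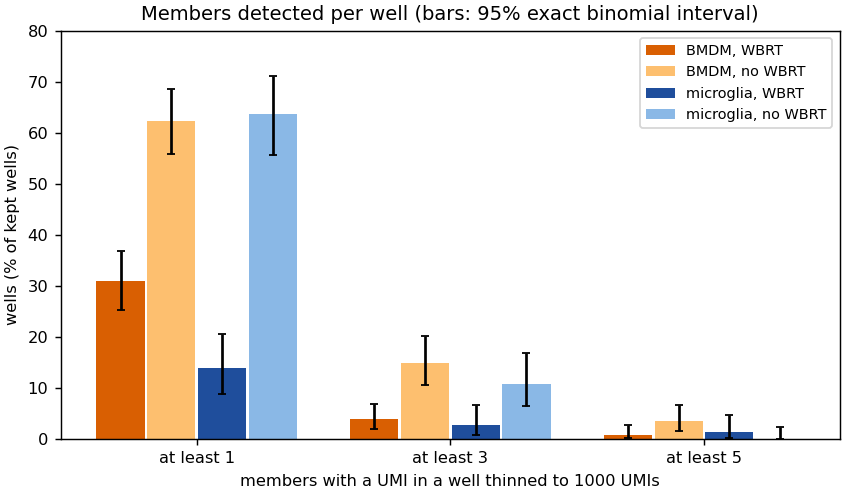
Share of kept wells with at least 1, 3 or 5 of the 10 members after each well was thinned to 1000 UMIs, with 95% exact binomial intervals. The share with at least 1 member is 30.9% and 62.4% in BMDM with and without WBRT, and 13.9% and 63.7% in microglia with and without WBRT.

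At the depth of each plate, pairs of members were often seen in the same wells. Ifit2 was seen in 39.0% of wells with Ifit3 and 9.50% of wells without it in BMDM with WBRT, in 51.6% and 17.6% in BMDM without WBRT, in 54.5% and 3.57% in microglia with WBRT and in 44.4% and 22.3% in microglia without WBRT. Isg15 was seen in 39.6% of wells with Ifit1 and 17.7% of wells without it in BMDM with WBRT, in 46.1% and 30.3% in BMDM without WBRT, in 4 of 16 and 5 of 135 wells in microglia with WBRT and in 44.4% and 22.4% in microglia without WBRT. Wells of a plate differ in depth, which raises detection of all genes together. In thinned wells Ifit2 was seen in 2 of 8 wells with Ifit3 and 3.15% of wells without it in BMDM with WBRT, in 29.6% and 7.25% in BMDM without WBRT, in 1 of 4 wells and 2.04% in microglia with WBRT and in 3 of 30 wells and 7.87% in microglia without WBRT. Isg15 was seen in 0 of 8 thinned wells with Ifit1 (exact binomial interval up to 36.9%) and 3.15% of wells without it in BMDM with WBRT, in 16.2% and 11.7% in BMDM without WBRT, in 1 of 5 wells and 2.05% in microglia with WBRT and in 9.09% and 10.4% in microglia without WBRT. Ifit3 in thinned microglia without WBRT was seen in 9.09% of wells with Ifit1 and 20.7% of wells without it. In BMDM Ifit3 was seen in 1 of 8 thinned wells with Ifit1 and 2.76% without it with WBRT, and in 21.6% and 9.65% without WBRT. In microglia with WBRT it was seen in 0 of 5 and 2.74%. Rsad2 was seen in 2 of 8 thinned wells with Ifit1 and 1.18% without it in BMDM with WBRT, and in 27.0% and 5.08% in BMDM without WBRT. For microglia these were 2 of 5 and 2.05% with WBRT, and 4.55% and 3.70% without WBRT. At equal depth the pairs thus did not all occur together more often, on few wells. Correlations over wells on the scale of log2(1 + counts per 10000) take each well's depth into account in part. Over the 45 pairs of members their median was 0.26 in BMDM with WBRT (262 wells), 0.22 in BMDM without WBRT (234 wells), 0.24 in microglia with WBRT (151 wells) and 0.17 in microglia without WBRT (157 wells). The pair Ifit2 and Ifit3 was the highest in 3 plates, at 0.61, 0.51 and 0.71, and Usp18 with Ifit3 (0.44) in microglia without WBRT. The lowest pair was Mx1 with Oas1a in microglia without WBRT, at -0.07.

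By the same measure, averaged over the 4 plates, the genes whose level across wells was most like the summed members were named from 4504 genes of at least 20 CPM in every plate. The first 10 non-members were Ifi44 (0.43), Ifi44l (0.40), Irf7 (0.35), Phf11b (0.34), Slfn5 (0.31), Phf11a (0.31), Ms4a4c (0.30), Parp14 (0.30), Ifi202b (0.29) and Ifi204 (0.29). The median over all non-member genes was 0.02 and the 99th percentile 0.19. Of these, Ifi44 had 0.59 in BMDM with WBRT, 0.37 in BMDM without WBRT, 0.40 in microglia with WBRT and 0.37 in microglia without WBRT. Points of one plate share its library and depth, and these values are a description.

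Wells were grouped into 10 clusters without interferon response, cell cycle, mitochondrial and ribosomal protein genes, so that the members' levels did not shape the clusters. Clusters are given a cell type only from fixed markers, and the plates differ in their mix. Cluster 1 was monocyte-like (59 wells of BMDM with WBRT, 57 of BMDM without WBRT), and cluster 2, like macrophages at brain borders, held 124 wells of BMDM with WBRT and 1 of BMDM without WBRT. Cluster 2 was enriched for the border macrophage markers Mrc1, Pf4, F13a1, Cbr2 and Stab1, but not for Cd163, Lyve1 or Folr2. It was also enriched for the monocyte markers Ccr2 and Fn1. Clusters 4 and 6 were microglia-like, cluster 4 with 60 wells of microglia with WBRT and 56 without WBRT, and cluster 6 with 3 and 90 wells. They also held 8 and 10 wells of BMDM without WBRT, with 1.86% and 11.4% of the counts of that plate. Of BMDM with WBRT they held 5 and 1 wells, with 1.26% and 0.21% of its counts. Cluster 8 was conventional dendritic-cell-like (5 and 35 wells of BMDM with and without WBRT) and cluster 10 mature dendritic-cell-like (0 and 40). Cluster 3, led by Slc40a1, Ccl8 and Igf1, cluster 5, led by Adamts1, Hspa1a and Tnf, cluster 7, led by Cd209a, Ffar2 and Cd7, and cluster 9, led by Mid1, D830005E20Rik and Grk4, stayed unnamed. Cluster 7 was enriched for the monocyte markers Ccr2, Plac8 and S100a4 and for the conventional dendritic cell markers Flt3, Cd209a and Wdfy4. Clusters held almost wholly by 1 plate may be that plate and not a cell type. Fewer cells with the program and less RNA of it per cell cannot be told apart in a pooled level.

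In BMDM without WBRT the summed members were highest in cluster 7, at 4397 CPM (4066 to 4756, 31 wells), and in the mature dendritic-cell-like cluster 10, at 3200 CPM (2903 to 3512, 40 wells). They stood at 1855 CPM in monocyte-like wells, 1355 CPM in conventional dendritic-cell-like wells and 989 CPM in cluster 9. The leading members differed between clusters. Cluster 7 was led by Ifit1 (950 CPM) and Rsad2 (887 CPM), the mature dendritic-cell-like wells by Epsti1 (1320 CPM) and Mx1 (501 CPM) with Oas1a at 7.37 CPM, the conventional dendritic-cell-like wells by Isg15 (391 CPM), the monocyte-like wells by Oasl2 (363 CPM) and cluster 9 by Epsti1 (169 CPM). Without the 3 richest wells of the plate, 2 of which lie in it, cluster 7 had 2633 CPM and was led by Epsti1 (516 CPM) and Oasl2 (367 CPM), with Ifit1 at 329 CPM and Rsad2 at 210 CPM.

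In BMDM with WBRT the summed members stood at 1049 CPM in monocyte-like wells (946 to 1160), 592 CPM in cluster 2 (554 to 633), 663 CPM in cluster 7, 220 CPM in cluster 5 and 147 CPM in cluster 3. Oasl2 was the highest member in clusters 1, 2, 5 and 7, at 275, 187, 61.1 and 195 CPM. Cluster 3 showed no count of Oas1a, Usp18 or Mx1 among 81622 transcripts. Microglia with WBRT had 585 CPM in cluster 5, 420 CPM in cluster 3 and 248 CPM in the microglia-like cluster 4. Microglia without WBRT had 1641 CPM in cluster 4 and 1580 CPM in cluster 6, led by Ifit2 (272 CPM) and Isg15 (271 CPM) in cluster 4 and by Ifit3 (333 CPM) and Oasl2 (276 CPM) in cluster 6. Over all their wells the summed level was thus about the same in the 2 microglia-like clusters, and other members led it. The 3 wells of this plate richest in members all lie in cluster 6. They had 90, 69 and 63 member counts, of which 29, 22 and 18 were Ifit3. The level of cluster 6 and the lead of Ifit3 in it thus depend on few wells.

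**Figure D5:**
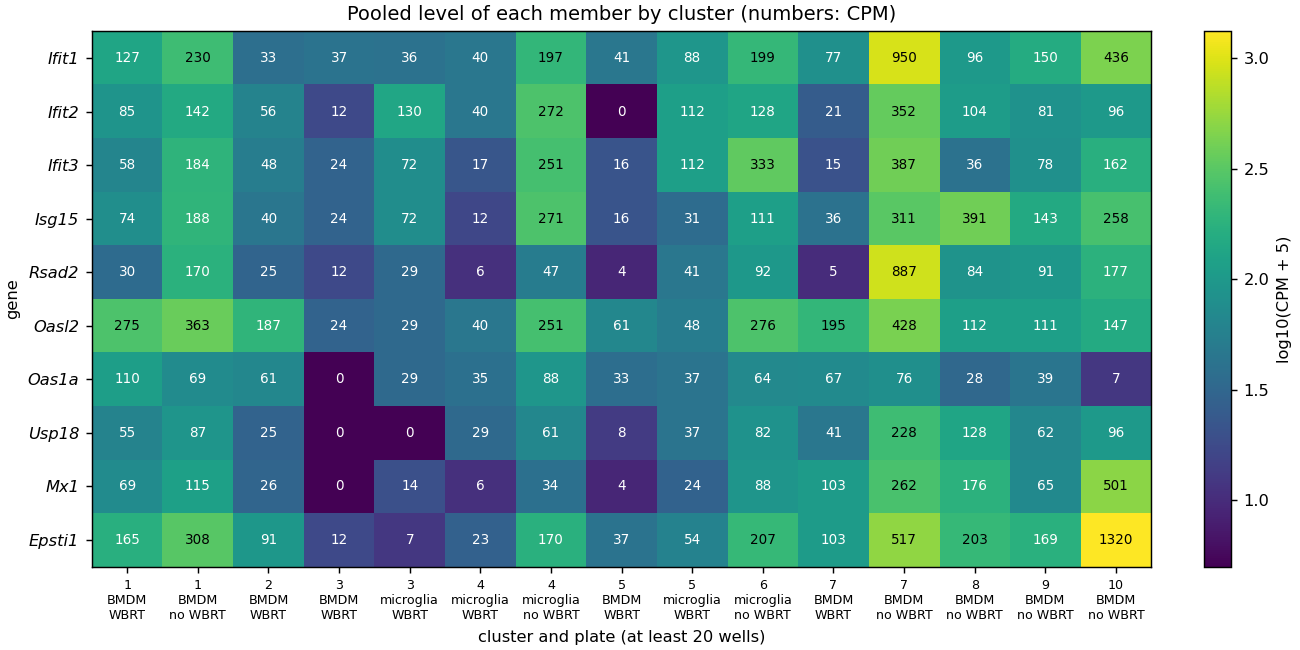
Pooled CPM of each member in each cluster and plate with at least 20 wells, with colour on the log10(CPM + 5) scale. Epsti1 in cluster 10 (1320 CPM) and Ifit1 (950 CPM) and Rsad2 (887 CPM) in cluster 7 of BMDM without WBRT are the highest values, and the highest value in clusters 3 and 5 is 130 CPM, of Ifit2 in cluster 3 of microglia with WBRT.

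Within clusters that held at least 20 wells of both plates, the summed members were lower with WBRT in each of the 3 that could be compared. In monocyte-like wells of BMDM they were 1.77 times lower (1.53 to 2.04), and 3 members were past the limit, Rsad2 (30.3 CPM with WBRT, 170 CPM without WBRT), Ifit3 (57.8 and 184 CPM) and Isg15 (74.4 and 188 CPM), where the background was 11.3% of genes downward. Oas1a was at 110 and 68.8 CPM (ratio 1.60, 0.865 to 3.12). In cluster 7 the sum was 6.64 times lower with WBRT (5.49 to 8.09) and 9 members were past the limit, all but Oas1a, with a background of 13.7%. Rsad2 in cluster 7 had 1 count with WBRT and 129 counts without WBRT, 5.14 and 887 CPM. Without the 3 richest wells of each plate it had 1 and 28 counts there, 5.14 and 210 CPM. The sum in cluster 7 was then 3.97 times lower (3.24 to 4.90) with 7 members past the limit, Mx1 (1.38 times lower) and Oasl2 (1.88 times lower) no longer among them. In monocyte-like wells the sum was then 2.02 times lower (1.74 to 2.34) and 6 members were past the limit.

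In the microglia-like cluster 4 the sum was 6.62 times lower with WBRT (4.77 to 9.39), on 43 and 242 counts, and none of the 3 richest wells of either plate lies in it. There 9 members were past the limit, all but Usp18, with a background of 23.1%. Some of them rested on few counts, Mx1 on 1 and 5, Rsad2 on 1 and 7 and Oas1a on 6 and 13 with and without WBRT. The intervals of the ratio included 1 for Mx1 (0.170, 0.00359 to 1.52) and Oas1a (0.392, 0.122 to 1.11). Isg15 had 11.5 CPM with WBRT and 271 CPM without WBRT, Ifit3 had 17.3 and 251 CPM, and Ifit2 had 40.4 and 272 CPM. Wells of cluster 4 are shallow, with a median of 2085 transcripts over all plates, and Malat1 stood at 353 CPM in it. The part of cell quality in this difference was not tested.

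The sorts could be compared within clusters 3 and 5 of the plates with WBRT. There the summed members were lower in BMDM than in microglia, 147 against 420 CPM in cluster 3 and 220 against 585 CPM in cluster 5, 2.86 times (1.52 to 5.84) and 2.66 times (1.95 to 3.67) lower. Past the limit downward were 4 of 7 members in cluster 3 and 6 of 10 in cluster 5, with backgrounds of 25.2% and 12.6%, and none was past it upward (16.6% and 9.94%). Over all wells the sum was higher in BMDM. Without the 3 richest wells of each plate the sums were 147 against 239 CPM in cluster 3 (1.62 times lower, 0.814 to 3.46) and 220 against 217 CPM in cluster 5. Past the limit were then 3 of 7 and 1 of 5 members, and no share of all genes was computed for these wells. The wells so removed were all of microglia (51 to 50 wells in cluster 3, 32 to 30 in cluster 5). They were chosen for their member counts, so this step could only lower the microglia sums and does not decide between the sorts.

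Other genes of the pathway were read from 9 lists, written with results of these data known. Of the interferon genes on the list only Ifnb1 has a row, with 0 counts in BMDM with WBRT, in BMDM without WBRT and in microglia with WBRT and 5 counts in microglia without WBRT, where a count of 3 equals 1.19 to 4.62 CPM. Receptor and kinase genes were spread around no difference, with a median log2 ratio of -0.03 for WBRT in BMDM and -0.02 in microglia. Ifnar2, a chain of the type I receptor, had 430 CPM in BMDM with WBRT and 226 CPM in BMDM without WBRT (ratio 1.90, 1.67 to 2.18), and 257 and 218 CPM in microglia with and without WBRT. Jak2, a kinase of the interferon gamma receptor, was the gene of this list past the limit downward in both sorts, at 54.9 and 270 CPM in BMDM with and without WBRT and at 18.5 and 49.2 CPM in microglia with and without WBRT.

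Transcription factors were mostly lower with WBRT, 7 of 9 in BMDM (4 past the limit) and 8 of 9 in microglia (2 past the limit). Of all genes tested, 44.15% were lower with WBRT in BMDM (6.14% past the limit) and 46.27% in microglia (7.56% past the limit), and the counts of each list below stand against these shares. Irf7, the factor that amplifies interferon production, had 146 CPM in BMDM with WBRT and 437 CPM in BMDM without WBRT (3.00 times lower, 2.62 to 3.43), and 43.1 and 334 CPM in microglia with and without WBRT (7.74 times lower, 5.24 to 11.9). Stat2, a transcription factor of type I interferon signalling, had 63.3 and 160 CPM in BMDM and 52.4 and 146 CPM in microglia with and without WBRT. Sensors of nucleic acid were lower in 10 of 13 genes in BMDM (2 past the limit) and in 13 of 14 in microglia (4 past the limit), among them Ifih1 (MDA5), at 46.2 and 98.8 CPM in BMDM and 27.7 and 74.3 CPM in microglia with and without WBRT.

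The tested relatives of the members were lower with WBRT except for Oas1g in BMDM. In BMDM 4 of 5 were lower with WBRT (2 past the limit), Mx2 at 17.5 and 50.6 CPM and Oasl1 at 26.3 and 65.6 CPM with and without WBRT. In microglia 5 of 5 were lower (3 past the limit), with Oasl1, which holds back translation of Irf7 in mice, at 3.08 and 143 CPM (46.4 times lower, 12.6 to 387) on 2 and 125 counts, and Oas2 at 15.4 and 111 CPM. Enzymes that attach or remove ISG15, Usp18 among them, were lower in 5 of 5 genes in both sorts, 4 past the limit in BMDM and 2 in microglia. The activating enzyme gene Uba7 had 55.7 and 145 CPM in BMDM with and without WBRT, and Trim25, a ligase gene of this system, had 57.0 and 148 CPM in microglia with and without WBRT.

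Among 29 other antiviral effectors, 27 were lower with WBRT in BMDM (9 past the limit, median log2 ratio -0.80) and 29 in microglia (16 past the limit, median -1.02). Isg20, an RNA exonuclease, had 23.5 and 108 CPM in BMDM with and without WBRT, and Cmpk2, a nucleotide kinase gene beside Rsad2, had 7.96 and 44.3 CPM. In microglia Ifi44 had 103 and 641 CPM and Ifi27l2a had 84.7 and 474 CPM with and without WBRT. The brakes of signalling were lower in 4 of 4 genes in both sorts, and the 1 past the limit in each was the member Usp18. The number past the limit in each list counts genes of at least 20 CPM in 1 of the 2 plates, and the lists hold genes of the same program as the members, so they are not independent of each other.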

How the data were processed

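Per the labels' protocols, sorted cells were processed by a sequencing provider with a published plate method that tags each transcript of a well with a unique molecular identifier (UMI). The authors deposited expected counts, estimated transcripts per gene and well with no normalization. All nonzero values (100%) matched, within 0.006, UMIs corrected for chance coincidence among 4096 identifiers. The build GRCm38 is per the submitters' processing notes, and the sources used here give no aligner, counter or annotation.

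Counts were summed over kept wells and divided by all non-ERCC counts (CPM). A count of 3 equals 1.19, 2.37, 4.62 and 3.43 CPM in BMDM with WBRT, BMDM without WBRT, microglia with WBRT and microglia without WBRT. Sums were rounded to whole counts for 95% intervals, which are exact Poisson (levels), exact conditional (ratios) and Clopper-Pearson (shares). The limit was a log2 ratio of CPM + 5 of at least 1 in size, among genes of at least 20 CPM in 1 of 2 plates. A pseudocount understates differences of low genes. Clusters came from scanpy 1.11.5 (2000 variable genes, 30 components, 15 neighbours, Leiden resolution 1). A cluster was named when at least 3 markers of a type were enriched and that type led its first 10 genes. Doublets were not called, as each well received 1 sorted cell. TMM factors of edgeR 4.0.16 were an alternative. Scripts were tested on simulated data.

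The members, lists and markers were chosen with earlier results of these data known. Members and up to 4 genes per list and comparison, by size of the log2 ratio, could be named, as could the 10 genes most like the members. Of 95 list symbols 12 had no row, and some genes and 1 of the lists are not reported here. Alternatives changed well filters, scaling, weights, depth, pseudocount, low-value filter, the richest wells and the mix of clusters. Shares of all genes past the limit were computed over all kept wells and within clusters, and not for the other alternatives.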

Additional observations from a re-analysis of the deposited data

Results flagged for a closer look

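Oas1a differed by WBRT in opposite directions in the 2 sorts, with a ratio of 1.49 in BMDM and 0.480 in microglia. The difference between them was not tested, since each group is 1 plate, and in BMDM the ratio was 0.893 when wells were thinned.

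Wells that failed the filters, and that no comparison uses, also held counts of the members. Their summed level was 396.5 CPM in BMDM with WBRT (18 counts), 1597 CPM in BMDM without WBRT (45 counts), 334.0 CPM in microglia with WBRT (33 counts) and 1514 CPM in microglia without WBRT (87 counts). The order of the plates with and without WBRT was the same as in kept wells.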

How the results depend on the processing

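No paired analysis was possible because each group is 1 plate and the labels give no replicate numbers, so no replicate could be left out either. The summed ratio of WBRT over no WBRT stayed below 1 under all 16 alternatives in BMDM (0.151 to 0.566) and all 14 in microglia (0.151 to 0.365). In BMDM it was 0.302 with every well weighted alike, 0.566 within cluster 1, 0.151 within cluster 7, 0.353 without dendritic-cell-like clusters, and without the 3 richest wells 0.496 within cluster 1 and 0.252 within cluster 7. The count of members past the limit was 3 within cluster 1. In microglia the ratio was 0.230 with wells weighted alike, 0.232 thinned, 0.165 without the 3 richest wells, 0.151 within cluster 4 (0.151 also without those wells) and 0.365 among wells of at least 1000 CPM Malat1, and 5 members were past the limit with a filter of 100 CPM. The ratio of Rsad2 there became 1.04 when thinned.

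For BMDM over microglia without WBRT the summed ratio was 1.28 with wells weighted alike, 1.46 thinned and 1.28 among high-Malat1 wells, and 1 member was past the limit without dendritic-cell-like clusters. No cluster had 20 wells of both plates for this comparison. With WBRT it was 1.68 with wells weighted alike, 1.96 thinned, 2.32 without the 3 richest wells, 1.17 among high-Malat1 wells, 0.350 within cluster 3 and 0.377 within cluster 5, and 0.616 and 1.02 within them without the 3 richest wells. The members past the limit numbered 4 thinned, 1 with a filter of 100 CPM, 5 without the richest wells, 4 within cluster 3, 6 within cluster 5 and 1 within cluster 5 without the richest wells. The ratio of Oasl2 was 0.847 within cluster 3 and that of Epsti1 0.675 within cluster 5. The cause of these moves was not tested. Usp18 had no count within cluster 3 in either plate and gave no ratio. Pseudocount and low-value filter do not enter a summed ratio. The choices of high-Malat1 wells, of leaving out dendritic-cell-like clusters, of leaving out mitochondrial rows, and of clusters without the richest wells were made after seeing the data. In microglia with WBRT, 12 to 58 counts per member limit single values.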
